A study of Mus musculus with 2 samples.

Results

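The 8 genes described here encode enzymes that supply or remove deoxynucleoside triphosphates (dNTPs), the building blocks of DNA: *Rrm1*, *Rrm2*, *Tk1*, *Tyms*, *Dut*, *Dck*, *Dtymk* and *Samhd1*. They are 8 of 18193 genes that the Affymetrix Mouse Genome 430 2.0 array names by a probe set of their own. They were chosen by the function of their enzymes at a time when the ratios on these arrays were already known, so their ratios are a description and no evidence about the group. RNA came from RAW264.7 cells, a macrophage-like mouse line, after transfection with scramble siRNA or with siRNA against *Flcn*, the gene of the tumor suppressor folliculin. In both conditions the medium was changed 24 hours after transfection to MEM with 10% FCS, and the cells were cultured for 48 hours more; no RANKL is listed for these cultures. Each condition is 1 culture on 1 array, with 1 siRNA against *Flcn*, so differences between them were not tested or checked against replicates, and the siRNA cannot be told apart from any other difference between the cultures.

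Ribonucleotide reductase makes deoxynucleotides from ribonucleotides and is the step that limits their supply. It is built from the large subunit *Rrm1* and, in dividing cells, the small subunit *Rrm2*, whose level is high in S phase. Thymidine nucleotides come either from dUMP, through *Dut* and *Tyms*, or from salvaged thymidine, through *Tk1*, and both routes meet at *Dtymk*. In macrophages, *Samhd1* breaks dNTPs down again and is known for holding back retroviruses by keeping the pool small.

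The deposited values are linear signal intensities, and their median was 12.8 with scramble siRNA and 13.6 with *Flcn* siRNA. A lower signal was raised to its array's median before the log2 ratio, the *Flcn* siRNA signal over the scramble siRNA signal, was computed, and a probe set or gene was counted where the geometric mean of its 2 signals reached 13.2. A gene stands for its probe set with the highest geometric mean, and it was called higher or lower at 1.5-fold or more, by size alone. *Flcn*, at which the siRNA was aimed, had lower signals with its siRNA, by 1.17-fold and 1.43-fold at its 2 probe sets above the filter, so neither was called. Of 8 macrophage markers, 8 lay at or above the median on both arrays, with summed signals of 20134 and 19199 with scramble and *Flcn* siRNA, and 1 of them, *Fcgr1*, was called lower (log2 ratio -1.44). Of 7 T and B cell markers none passed the filter, with summed signals of 47.8 and 37.4, and of 8 fibroblast and epithelial markers 3 passed, *Col1a2*, *Epcam* and *Krt5*, with signals of at most 19.9 and log2 ratios of -0.43, -0.12 and -0.55. The summed signals of these 8 were 80.2 and 52.3, and none lay at or above the median on both arrays. No marker had a signal of 0. Of 7 measured reference genes none was called. Their log2 ratios ranged from -0.091 to 0.40, the highest being that of *Gusb*, with a median of 0.10.

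Of the 8 members, 4 were called higher on the *Flcn* siRNA array, namely *Tk1*, *Rrm2*, *Rrm1* and *Dtymk*, and 0 were called lower. Over all 10285 genes above the filter, 5.87% were called higher and 5.54% lower. *Tyms*, *Dut* and *Dck* had log2 ratios between 0 and the threshold, and *Samhd1* was the 1 member below 0. The median log2 ratio of the members was 0.62, and that of all genes above the filter was 0.013. All 8 members had signals at or above the median on both arrays, so none passed the filter through 1 array alone. In RNA of a whole culture, more cells of one kind cannot be told apart from more RNA of a gene in each cell.

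**Figure D1:**
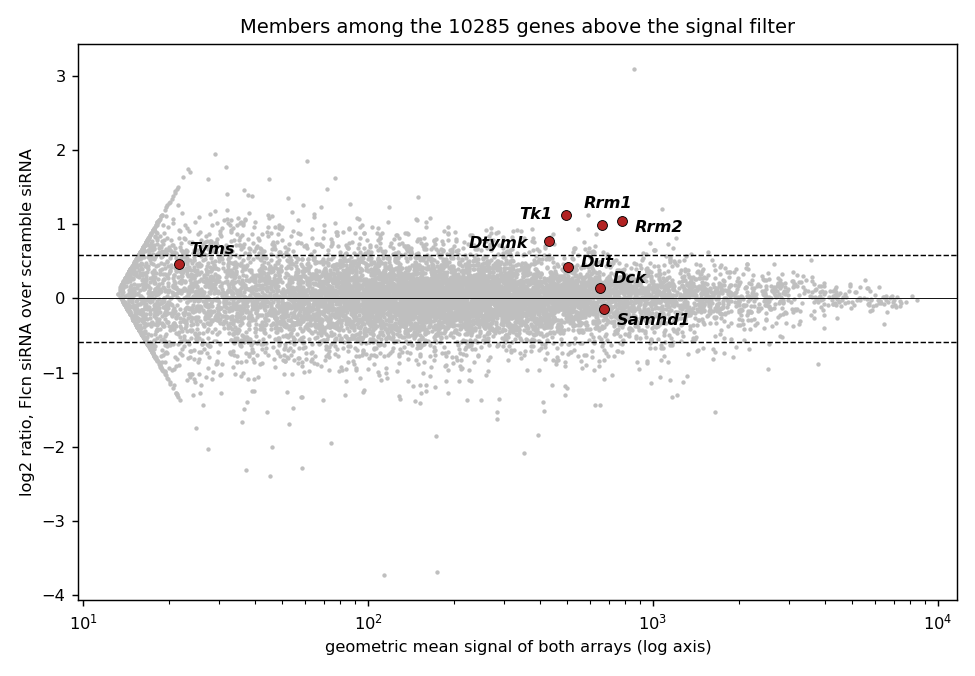
Log2 ratio of the signals (vertical axis) against the geometric mean signal of both arrays (horizontal log axis) for the 10285 genes above the signal filter in grey, with the 8 members in red and dashed lines at 1.5-fold. Signals under the array's median are shown at that median, which gives the wedge at the left edge. *Tk1*, *Rrm2*, *Rrm1* and *Dtymk* lie above the upper dashed line at signals where few genes do, and *Tyms* lies close to the left edge.

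Both subunits of the reductase were about 2-fold higher on the *Flcn* siRNA array. *Rrm2*, the small subunit that carries the radical used in catalysis, had 3 probe sets, with a signal of 1112 against 541 with scramble siRNA at the brightest, 861 against 379 at the next and 658 against 219 at the dimmest. All were called higher, by 2.06-fold, 2.27-fold and 3.01-fold. The value used for the gene is thus the smallest of the 3, and it comes from a probe set with the suffix x_at, which marks probes that may bind other transcripts. *Rrm1*, the large subunit with the active site, had signals of 932 against 468 and 896 against 483 at its probe sets above the filter, which is 1.99-fold and 1.85-fold higher. Its remaining probe set had 7.2 against 6.9, under the median on both arrays, and gives no ratio. Between probe sets, the log2 ratio had an SD of 0.28 for *Rrm2* and 0.071 for *Rrm1*. For comparison, the median SD was 0.19 over the 5034 genes that had 2 or more usable probe sets. It measures the spread between probe sets of a gene, whatever its source, and is no replicate error.

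**Figure D2:**
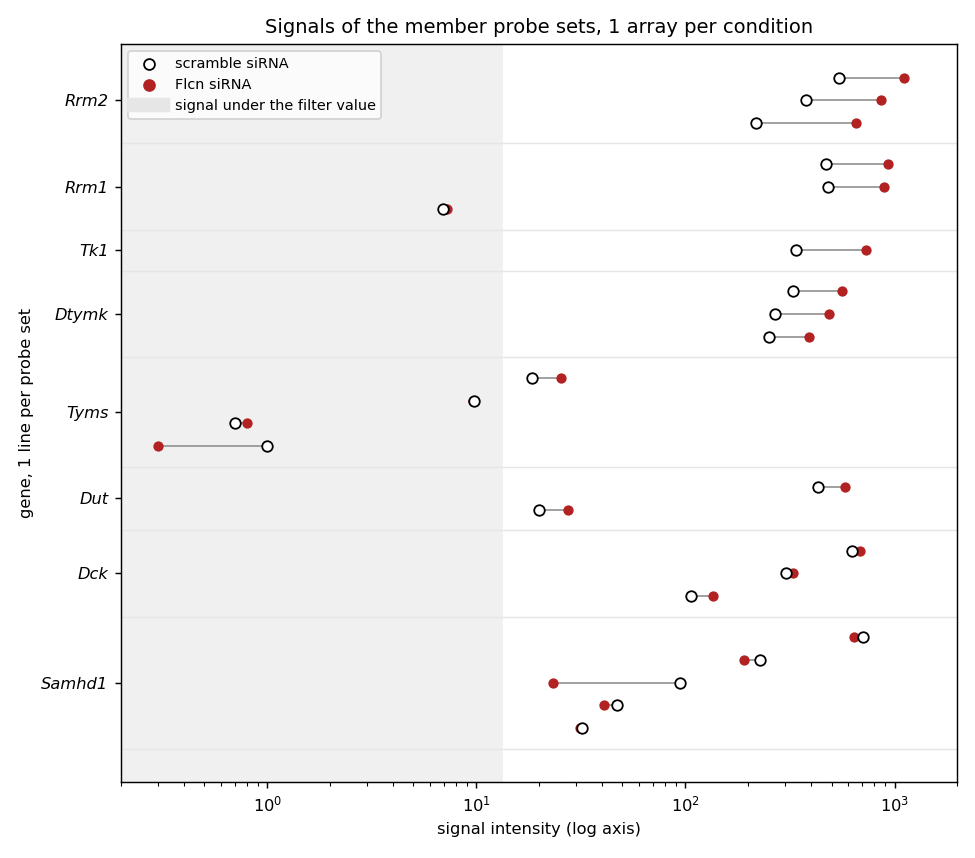
Signal intensity (horizontal log axis) at each of the 24 probe sets of the 8 members, with 1 line per probe set, an open point for scramble siRNA and a red point for *Flcn* siRNA, and grey shading for signals under 13.2. The red points lie to the right at every probe set of *Rrm2* and *Dtymk* and at that of *Tk1*, while those of *Samhd1* lie to the left.

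The bases just before the genes of both subunits are shown because the 2 genes stood together on these arrays. Each window runs from 250 bases before an annotated start site to 50 bases from it onward, read 5′ to 3′ on the strand of the gene, from RefSeq sequence on GRCm38.p6. All 8 members matched a window by symbol. The table gives 1 start site for each member, which for *Dut*, *Tk1*, *Dtymk* and *Tyms* lies inside the gene's outermost annotated end, so other start sites were not searched. Capitals mark letters that match a motif on either strand. The motifs searched were CCAAT, the GC box GGGCGG, the E-box CACGTG bound by the MiT/TFE factors, the cell cycle homology region as TTTGAA or TTCGAA, and the E2F motif, a site of the factors that drive S phase genes, as TTTGGCGC or TTTCCCGC or TTTGCCGC or TTTCGCGC. The E2F core, with TTGGCGC or TTCCCGC or TTGCCGC or TTCGCGC, lies within the longer motif and was added after the windows had been seen. The *Rrm1* window is at chr7:102441445-102441744 on the plus strand, and the *Rrm2* window at chr12:24708004-24708303 on the plus strand.
*Rrm1*: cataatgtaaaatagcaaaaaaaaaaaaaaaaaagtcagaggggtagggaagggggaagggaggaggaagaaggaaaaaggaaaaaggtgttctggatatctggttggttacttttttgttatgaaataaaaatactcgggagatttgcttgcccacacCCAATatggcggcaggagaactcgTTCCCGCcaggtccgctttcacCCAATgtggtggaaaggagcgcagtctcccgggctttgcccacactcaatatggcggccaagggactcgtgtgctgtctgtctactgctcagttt
*Rrm2*: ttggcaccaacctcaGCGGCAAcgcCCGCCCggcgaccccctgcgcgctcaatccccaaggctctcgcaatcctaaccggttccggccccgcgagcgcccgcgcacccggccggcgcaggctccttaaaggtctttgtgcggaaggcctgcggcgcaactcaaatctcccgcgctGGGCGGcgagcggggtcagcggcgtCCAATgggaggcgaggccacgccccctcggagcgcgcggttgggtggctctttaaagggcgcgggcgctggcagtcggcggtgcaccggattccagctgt

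In the *Rrm1* window the capitals are 2 CCAAT boxes that begin at base -91 and at base -45 from the start site, with an E2F core between them at base -67. The *Rrm2* window has a CCAAT box at base -50, GC boxes at bases -225 and -75, and an E2F core on the other strand at base -235. Over all 32851 windows in the table, 37.4% hold a CCAAT box, 35.7% a GC box and 9.57% an E2F core. The longer E2F motif, in 2.26% of all windows, was in no member's window. The cell cycle homology region, in 19.2% of all windows, was among the members only in that of *Dck*. A GC box was in the windows of 6 members, among them *Tyms*, *Dut* and *Dck*, which were not called. These are matches of letters, and whether a factor was bound was not measured.

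Of the enzymes of thymidine nucleotides among the members, *Tk1* and *Dtymk* were called higher and *Tyms* and *Dut* were not. *Tk1*, the cytosolic thymidine kinase of dividing cells, had a signal of 733 with *Flcn* siRNA and 337 with scramble siRNA at its only probe set, a 2.18-fold difference. Among the 10285 genes above the filter it held rank 46 from the highest log2 ratio down, against rank 72 for *Rrm2*, rank 92 for *Rrm1* and rank 254 for *Dtymk*. The members not called held rank 1007 (*Tyms*), rank 1123 (*Dut*), rank 3447 (*Dck*) and rank 7163 (*Samhd1*). The order of *Tk1* and *Rrm2* rests on the probe set used, since the other 2 probe sets of *Rrm2* had log2 ratios of 1.19 and 1.59 against 1.12 for *Tk1*. *Dtymk*, the kinase that turns dTMP into dTDP, had 563 against 329, 484 against 269 and 391 against 251, so that each of its 3 probe sets was called higher, by 1.71-fold, 1.80-fold and 1.56-fold. Their SD on the log2 scale was 0.11. The start sites of both genes are shown for the same reason as those of the reductase. The *Tk1* window is at chr11:117825965-117826264 and the *Dtymk* window at chr1:93801885-93802184, both on the minus strand.
*Tk1*: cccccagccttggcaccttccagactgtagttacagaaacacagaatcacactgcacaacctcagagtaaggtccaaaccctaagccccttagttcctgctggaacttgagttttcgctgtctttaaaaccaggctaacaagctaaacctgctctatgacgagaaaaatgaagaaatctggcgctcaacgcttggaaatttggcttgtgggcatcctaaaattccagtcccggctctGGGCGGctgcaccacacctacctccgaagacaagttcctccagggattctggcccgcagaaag
*Dtymk*: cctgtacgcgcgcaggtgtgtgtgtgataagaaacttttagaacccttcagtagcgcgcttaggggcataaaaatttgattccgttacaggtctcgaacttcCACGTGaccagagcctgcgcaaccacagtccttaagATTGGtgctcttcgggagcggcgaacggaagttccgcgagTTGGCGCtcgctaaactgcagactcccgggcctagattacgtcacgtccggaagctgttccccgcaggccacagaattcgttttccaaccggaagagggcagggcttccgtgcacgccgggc

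The *Tk1* window holds a GC box at base -13 and no other of these motifs. The *Dtymk* window holds a CCAAT box on the other strand at base -112, an E2F core at base -72 and an E-box at base -148. An E-box is in 7.15% of all windows, and among the members it was also in that of *Tyms*.

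*Tyms* and *Dut* act in the route from dUTP to dTMP, and neither reached 1.5-fold. *Dut*, which removes diphosphate from dUTP and so both makes dUMP and keeps uracil out of DNA, had a signal of 582 against 432 with scramble siRNA, or 1.35-fold higher, and 27.5 against 19.9, or 1.38-fold higher, at its dim probe set. The SD between the 2 was 0.027. *Tyms*, thymidylate synthase, which methylates dUMP, was poorly measured by the probe sets that name it alone. Its best had 25.4 against 18.5, or 1.37-fold higher, near the median, and the other 3 had signals of at most 9.8 on either array. A further probe set is shared with the pseudogene *Tyms-ps* in the annotation and so lies outside the rule for members. It had 318 against 226, or 1.41-fold higher, and its signal cannot be divided between the gene and the pseudogene.

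*Dck*, the kinase that salvages deoxycytidine and deoxypurines, differed little. Its probe sets had 686 against 623, 327 against 303 and 136 against 106, with log2 ratios of 0.14, 0.11 and 0.36, and none was called. The mean over the 3 was 0.20, and the SD between them was 0.14.

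*Samhd1*, the hydrolase that removes dNTPs, was the 1 member with lower signals on the *Flcn* siRNA array, by a small amount at 4 of its 5 probe sets. The brightest had 643 against 709 with scramble siRNA and the next 191 against 227, with log2 ratios of -0.14 and -0.25. The 2 dimmest had 40.9 against 46.9 and 31.3 against 32.1, with log2 ratios of -0.20 and -0.036. The remaining one stood apart, with 23.2 against 94.7, or 4.08-fold lower, and was the only probe set of any member called lower. It is an x_at probe set of mid signal, and no other probe set of the gene differed by 1.5-fold. The SD between the 5 was 0.84, and the mean of their log2 ratios was -0.53, against -0.14 for the probe set used. The start site of *Samhd1* is shown as that of the member on the other side of 0, at chr2:157135047-157135346 on the minus strand. Its 1 motif is a GC box at base -220.
*Samhd1*: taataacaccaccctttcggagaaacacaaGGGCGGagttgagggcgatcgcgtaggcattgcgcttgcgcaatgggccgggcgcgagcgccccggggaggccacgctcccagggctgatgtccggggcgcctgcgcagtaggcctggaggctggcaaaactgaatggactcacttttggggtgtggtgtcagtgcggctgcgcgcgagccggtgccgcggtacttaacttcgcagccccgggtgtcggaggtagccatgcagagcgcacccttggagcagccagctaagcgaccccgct

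Over the members together, 20 of 24 probe sets passed the filter, of which 9 were called higher and 1 lower. Of all 18983 probe sets of named genes above the filter, 6.56% were called higher and 5.92% lower. All 15 probe sets above the filter of the 7 members other than *Samhd1* had log2 ratios above 0, and the 5 of *Samhd1* had log2 ratios below 0. Of 6 members with at least 2 such probe sets, 3 had every one called higher, which was so for 1.69% of the 5034 genes of that kind. Of the 7 members whose geometric mean signal reached 100, 4 were called higher, against 3.02% of the 6628 genes at such signals.

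**Figure D3:**
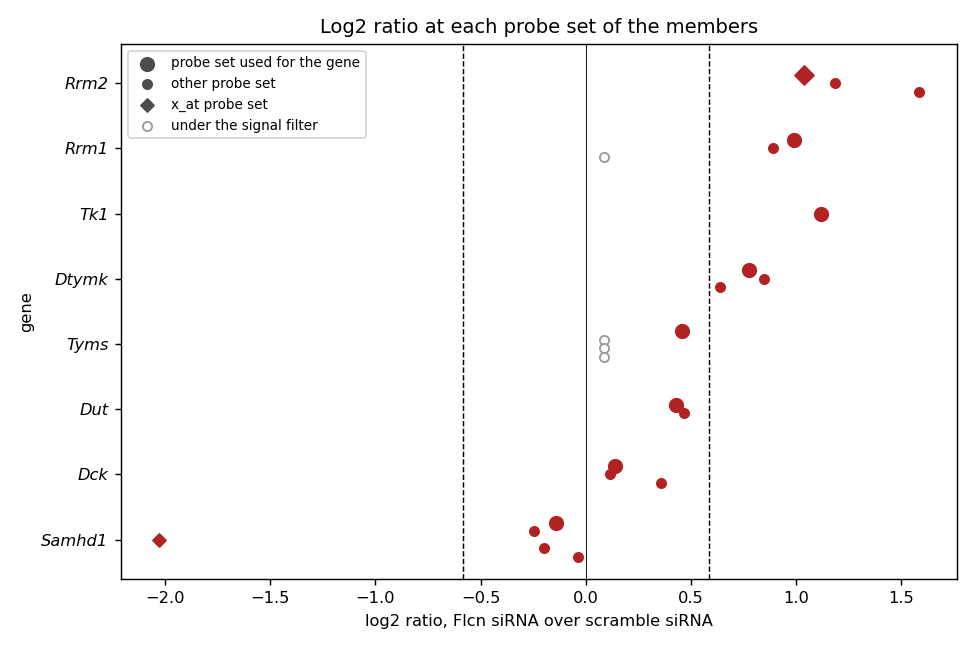
Log2 ratio at each probe set of the 8 members, with a large point for the probe set used for the gene, diamonds for x_at probe sets and dashed lines at 1.5-fold. Open points have both signals under the median and are drawn at the ratio of the 2 medians, 0.087, so they carry no information. The probe sets of *Rrm2*, *Rrm1*, *Tk1* and *Dtymk* above the filter lie right of the dashed line, and 1 diamond of *Samhd1* lies far to the left, at -2.03.

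The relatives of these enzymes that work outside S phase or in mitochondria lay on the other side of 0. *Rrm2b*, the p53-induced small subunit that replaces *Rrm2* in resting cells and after DNA damage, had a signal of 125 with *Flcn* siRNA and 192 with scramble siRNA, or 1.54-fold lower. Its next probe set had 66.8 against 114, a log2 ratio of -0.76, while its dim probe sets had 16.1 against 13.8 and 13.8 against 14.7, close to the median. With the mean of its 4 probe sets *Rrm2b* was no longer called. *Tk2*, the mitochondrial thymidine kinase, had 95.0 against 173 at its only probe set, or 1.82-fold lower. *Dguok*, the mitochondrial kinase of deoxyguanosine, had 135 against 174, a log2 ratio of -0.37, which was not called. The log2 ratio of *Rrm2* thus exceeded that of *Rrm2b* by 1.66, and that of *Tk1* exceeded that of *Tk2* by 1.99. For *Dck* and *Dguok* the difference was 0.51.

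**Figure D4:**
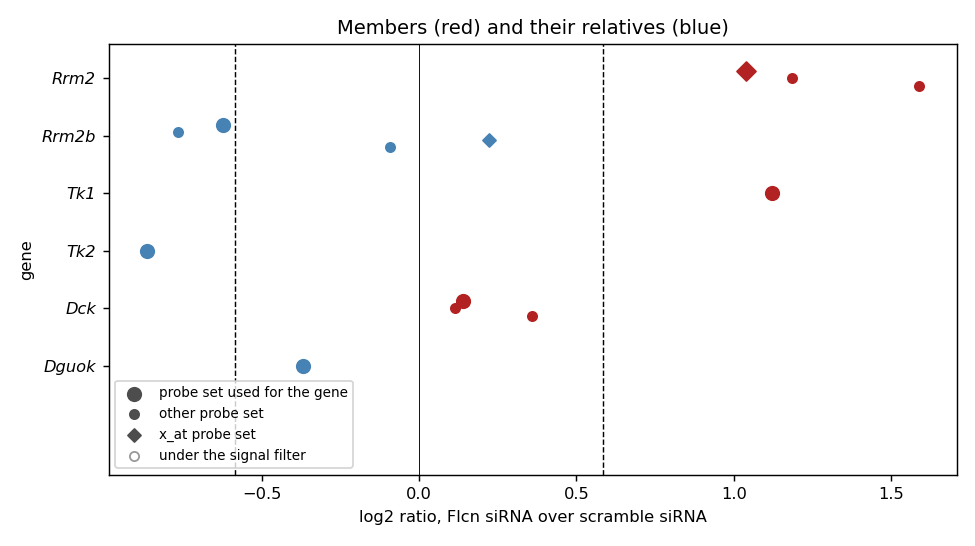
Log2 ratio at each probe set of *Rrm2*, *Tk1* and *Dck* in red and of *Rrm2b*, *Tk2* and *Dguok* in blue, with a large point for the probe set used for the gene and dashed lines at 1.5-fold. All red points lie right of 0, and the large blue points lie left of it at -0.62, -0.86 and -0.37.

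Of 52 other genes that make, carry, clear or break down deoxynucleotides or that control the proteins of members, 45 had a probe set of their own in the annotation, and the other 7 are not analysed here. Of these, 42 passed the filter, and their median log2 ratio was 0.25. Of the 42, 6 were called higher and 3 lower, against 5.87% and 5.54% of all 10285 genes above the filter. Besides *Rrm2b* and *Tk2*, the gene called lower was *Cmpk2*, a mitochondrial UMP and CMP kinase induced by interferon, with 11.2 against 22.5, or at least 1.65-fold lower, since 1 signal lay under the median. The folate enzymes that serve *Tyms* stood on the other side. *Shmt1*, the cytosolic serine hydroxymethyltransferase, had 148 against 82.1, or 1.81-fold higher, but its 4 probe sets had log2 ratios from 0.23 to 1.38. *Mthfd1*, which interconverts folate one-carbon units, was 1.77-fold higher, with 396 against 224. The mitochondrial *Shmt2* had a log2 ratio of -0.10 at the x_at probe set used, but its 4 probe sets ranged from -0.87 to 0.51. *Dctd*, which deaminates dCMP to dUMP, had 149 against 110, or 1.35-fold, and was not called.

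Among 11 measured nucleotide kinases, *Nme4*, a mitochondrial nucleoside diphosphate kinase, was called higher, with 68.4 against 35.9. Of all genes above the filter, 5.87% were called higher. The median log2 ratio of the kinases was 0.10. Of these kinases 9 lay above 0, or 6 after scaling both arrays to the same median. Of the 3 measured hydrolases that clear modified or unwanted nucleotides, *Dctpp1*, which acts on dCTP and its analogs, was 1.61-fold higher, with 332 against 206, and *Nudt1* and *Itpa* had log2 ratios of 0.39 and 0.38. The 4 genes that pass electrons to the reductase, of the thioredoxin and glutaredoxin systems, ranged from -0.22 to 0.29 and none was called. The 7 measured genes of deoxynucleoside breakdown ranged from -0.20 to 0.27, and none was called. *Slc29a1*, the nucleoside transporter ENT1, had 304 against 192, or 1.58-fold higher, while *Slc29a2* had 12.8 against 19.9, or at least 1.46-fold lower, and was not called. Of 6 cyclins, kinases and ubiquitin ligase parts that act on *Rrm2*, *Tk1* or *Samhd1* proteins, all had log2 ratios above 0. They were counted together whatever their action on those proteins. Their median was 0.49, against 0.013 for all genes above the filter. *Skp2*, which is in this list, had 6 probe sets with log2 ratios from -0.039 to 0.68. *Ccna2*, the cyclin A gene, was called, with 738 against 478. *Slc29a1* and *Ccna2* were no longer called after scaling both arrays to the same median.

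Of 7 genes of the replication fork, *Pcna* and the helicase genes *Mcm2* to *Mcm7*, 5 were called higher, against 5.87% of all genes above the filter, and *Mcm2* (1.31-fold) and *Pcna* (1.28-fold) were not. All 7 had log2 ratios above 0, with 0.70 as their median. Their summed signal was 6269 with scramble siRNA and 9439 with *Flcn* siRNA, and that of the 8 members was 3457 and 5276. Whether the share of cells in S phase differed between the cultures was not tested. Of 9 interferon-stimulated genes, set beside *Samhd1*, 4 passed the filter and 1 was called, *Oas1a*, with 773 against 1233, or 1.60-fold lower. The median log2 ratio of the 4 was -0.0042, and 5.54% of all genes above the filter were called lower.

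**Figure D5:**
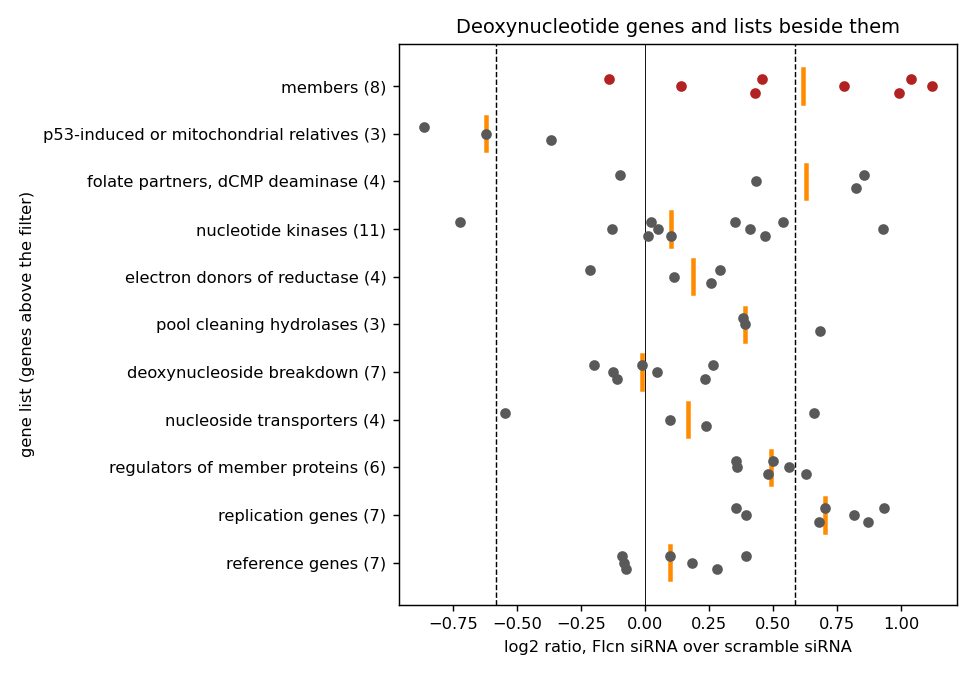
Log2 ratio of each gene above the signal filter in the members (red) and in the lists set beside them (grey), with the number of genes in parentheses, orange bars at the medians and dashed lines at 1.5-fold. The bars of the members (0.62), the folate partners with dCMP deaminase (0.63) and the replication genes (0.70) lie farthest right, and that of the relatives (-0.62) lies left of the lower dashed line.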

How the data were processed

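RNA of RAW264.7 cells was measured on Affymetrix GeneChip arrays of the mouse genome, 1 per condition. The authors processed the arrays with GCOS version 1.0 and deposited a linear signal intensity for every probe set. Detection calls were not used, and the scaling target is not given in the sources used here. The mean signal without the outer 2% at each end was 100 on both arrays. Of 45101 probe sets, 64 are controls, 34958 name 1 gene in the platform annotation, 932 name several and 9211 are not listed. Symbols were updated by Entrez ID, which matched 34754 probe sets in the RefSeq table of GRCm38.p6. Median signals, floors, the signal filter (geometric mean of at least 13.2) and the 1.5-fold call are as described with the results. With 1 array per condition no test was run, and this number of arrays is what limits precision.

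The members and lists were chosen with earlier results of these data known. The text gives all members with every probe set, *Flcn*, every gene of the pathway lists past 1.5-fold, and *Rrm2b*, *Tk2*, *Dguok*, *Shmt1*, *Dctd*, *Cmpk2* and *Slc29a1*; other list genes are examples. Alternatives changed the scaling, the floor, the filter or the choice of probe set. The functions were tested on simulated data. Scripts ran under Python 3.11.15 with pandas 2.3.3 and numpy 2.4.6, trimmed means came from scipy 1.17.1, and plots from matplotlib 3.10.9.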

Additional observations from a re-analysis of the deposited data

How the results depend on the processing

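The same 4 members, *Rrm1*, *Rrm2*, *Tk1* and *Dtymk*, were called higher and none lower under the 10 alternatives run. These were median scaling, quantile normalization, a floor at the 25th percentile or none, averaging a gene's probe sets, taking each array's highest probe set, probe sets without the suffixes s_at and x_at, a filter at the 75th percentile or none, and probe sets without x_at, the last chosen after the data had been seen. The median log2 ratio of the members ranged from 0.53 to 0.78. It was highest with the stricter filter, which dropped *Tyms*. With averaged probe sets *Rrm2* had a log2 ratio of 1.27 and *Samhd1* of -0.53, while the other members moved by less than the median SD between probe sets under every alternative. *Dck* ranged from 0.051 to 0.20. Among pathway genes, *Slc29a2* was called lower with median scaling, quantile normalization, no floor or the lower floor, *Ccnf* was called higher with averaged probe sets, and *Nme4* and *Cmpk2* did not pass the stricter filter. The cause of these changes was not tested, other than the fewer genes that a stricter filter leaves. Dim signals limit *Tyms*, *Cmpk2* and *Slc29a2*.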
